A study of Mus musculus with 18 samples.

Results

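Gut hormones are secreted by enteroendocrine cells, single cells scattered through the lining of the intestine. The 10 genes described here encode 7 peptide hormones (Gip, Cck, Sct, Gcg, Sst, Nts and Ghrl), the precursor of the tachykinin substance P (Tac1), the enzyme that limits the rate of serotonin synthesis (Tph1) and a core protein of secretory granules (Chga, chromogranin A). They were taken by name from the array's gene annotation, 1 probe set each, from 19938 genes with a symbol of their own. All 10 were among the 17316 genes tested, for which 3 or more arrays had to read above their own 25th percentile.

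The study asked whether the transcription factor Stat3 is needed for the progression of intestinal tumours in mice with the APCmin mutation, which activates WNT signalling. RNA of 18 samples was measured on 18 arrays in 6 groups of 3. The controls were labelled Stat3fl/fl and the others Stat3-/-, which the series text describes as floxed Stat3 alleles together with a Cre recombinase under the Villin promoter (Stat3deltaIEC). That promoter is active in the intestinal epithelium, so the other cells of a tumour keep Stat3.

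Intestinal epithelial cells were replicates 1 to 3 (control) and 4 to 6 (deleted). Male tumours were replicates 7 to 9 (control) and 10 to 12 (deleted), and female tumours were replicates 13 to 15 (control) and 16 to 18 (deleted). The labels give no sex and no Apc genotype for the epithelial cells, no age for any mouse, and do not tie any sample to an animal. The p-values therefore measure only how these samples vary, and part of that variation may be technical. A description line on tumour and epithelial samples alike speaks of colorectal tumours induced with azoxymethane and dextransulfate, whereas the series text describes APCmin tumours that arise mostly in the small intestine, so the gut segment of a tumour is not known.

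Stat3 itself checked the labels: it was lower in the deleted samples by a log2 difference of -1.96 ± 0.15 (SE) in epithelial cells (adjusted p = 1.23e-05) and of -1.98 ± 0.11 in tumours of both sexes (adjusted p = 4.12e-08), with no overlap between genotypes. Array medians lay between 5.88 and 6.07 on the log2 scale. The mean of 8 epithelial markers lay between 11.3 and 11.5 in the 6 epithelial arrays and between 11.4 and 11.9 in the 12 tumour arrays. The mean of 11 smooth muscle and fibroblast markers lay between 5.96 and 6.43 in epithelial arrays and between 8.82 and 10.01 in tumour arrays, so the tumours held stroma. The mean of 10 T and NK cell markers went the other way, with a median of 7.35 in epithelial arrays and of 6.40 in tumours.

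Each kind of enteroendocrine cell makes a characteristic mix of hormones and releases it in response to nutrients, acid or bile acids. A hormone is cut from a longer precursor by the prohormone convertase Pcsk1 and stored in dense granules built around chromogranins. Many cells of the upper small intestine make gastric inhibitory peptide (Gip), cholecystokinin (Cck) or secretin (Sct), cells of the lower gut make the glucagon precursor (Gcg) for GLP-1 and neurotensin (Nts), and enterochromaffin cells make serotonin and often substance P. The cells arise from a secretory lineage driven by basic helix-loop-helix factors such as Neurog3 and Neurod1, which bind E-boxes.

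The promoter windows of 4 genes are printed because these genes show the range of the results: Nts, Gip and Cck had the largest differences between tumours and epithelial cells in control mice, of which Nts and Cck are shown, Chga is the granule protein shared by many enteroendocrine cells, and Tac1 went the other way. Each is the 250 bases before the annotated start, from RefSeq on GRCm38.p6, written 5′ to 3′ on the strand of the gene. Capitals mark matches to an E-box (CAGNTG) or to the core of a cyclic AMP response element (TGACG), searched on both strands. The windows are Cck at chr9:121495695-121495944 (minus strand), Nts at chr10:102490419-102490668 (minus strand), Chga at chr12:102554691-102554940 (plus strand) and Tac1 at chr6:7554811-7555060 (plus strand).
Cck: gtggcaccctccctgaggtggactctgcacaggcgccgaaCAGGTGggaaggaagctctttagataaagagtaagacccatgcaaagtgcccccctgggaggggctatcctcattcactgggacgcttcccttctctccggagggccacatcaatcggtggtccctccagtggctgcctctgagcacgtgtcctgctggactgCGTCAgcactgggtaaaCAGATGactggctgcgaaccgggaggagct
Nts: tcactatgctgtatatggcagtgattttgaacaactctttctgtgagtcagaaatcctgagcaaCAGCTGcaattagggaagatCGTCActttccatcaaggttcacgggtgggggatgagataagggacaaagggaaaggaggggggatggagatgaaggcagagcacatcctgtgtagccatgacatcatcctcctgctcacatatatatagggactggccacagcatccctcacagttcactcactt
Chga: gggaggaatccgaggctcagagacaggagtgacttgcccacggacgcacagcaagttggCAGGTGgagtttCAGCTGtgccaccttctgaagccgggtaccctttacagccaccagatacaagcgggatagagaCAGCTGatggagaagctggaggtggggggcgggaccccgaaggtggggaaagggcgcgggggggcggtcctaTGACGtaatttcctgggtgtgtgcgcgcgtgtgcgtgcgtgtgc
Tac1: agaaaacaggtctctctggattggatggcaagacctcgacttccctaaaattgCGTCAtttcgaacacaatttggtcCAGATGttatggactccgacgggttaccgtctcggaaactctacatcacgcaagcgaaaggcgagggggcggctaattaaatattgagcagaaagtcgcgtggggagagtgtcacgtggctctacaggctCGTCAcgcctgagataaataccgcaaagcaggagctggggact

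All 10 genes were in the promoter table, with 14 windows between them. An E-box lay in a window of 8 of the 10 genes (all but Sst and Tph1), against 48.2% of 27025 genes in the table. The TGACG core lay in a window of 6 of the 10 (Cck, Sst, Nts, Tac1, Tph1 and Chga), against 19.8% of genes. In the printed windows it began 47 bases before the start in Cck, 44 in Chga, and 43 and 197 in Tac1, and 166 in Nts. A palindromic STAT site (TTC, any 3 bases, GAA) was found in a window of 1 gene, Ghrl, against 8.13% of genes. The E-box and TGACG matches share no bases in the printed windows. Genes with several windows have more chances of a match, and a match describes letters, not binding.

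In control mice, 9 of the 10 genes were lower in tumours than in epithelial cells and 1, Tac1, was higher, each with an adjusted p under 0.05 in limma. Of all genes tested, 35.3% were called lower and 30.4% higher in the same comparison, so a call by itself is common here. The median difference of the 10 genes was -1.80 on the log2 scale, against -0.08 over all genes tested. The same 9 were called lower and Tac1 higher in Stat3-deleted mice, where 36.2% of genes were called lower and 30.3% higher, and the median of the 10 was -1.71 against -0.07. For 8 of the 10 genes (all but Tac1 and Tph1) every one of the 12 tumour arrays lay below all 6 epithelial arrays, which held for 14.9% of genes tested. In tissue samples such as these, fewer cells of a type and less RNA per cell cannot be told apart. Smooth muscle and fibroblast markers moved with this comparison, as given above. Markers of gut segments moved too in control mice, where 5 of 5 ileum markers were called lower (median -2.73). Of 6 proximal small intestine markers 4 were called lower and 0 higher (median -1.35). Of 6 colon markers 1 was called lower and 0 higher (median 0.42). The part of stroma and of gut segment in this comparison was not tested.

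**Figure D1:**
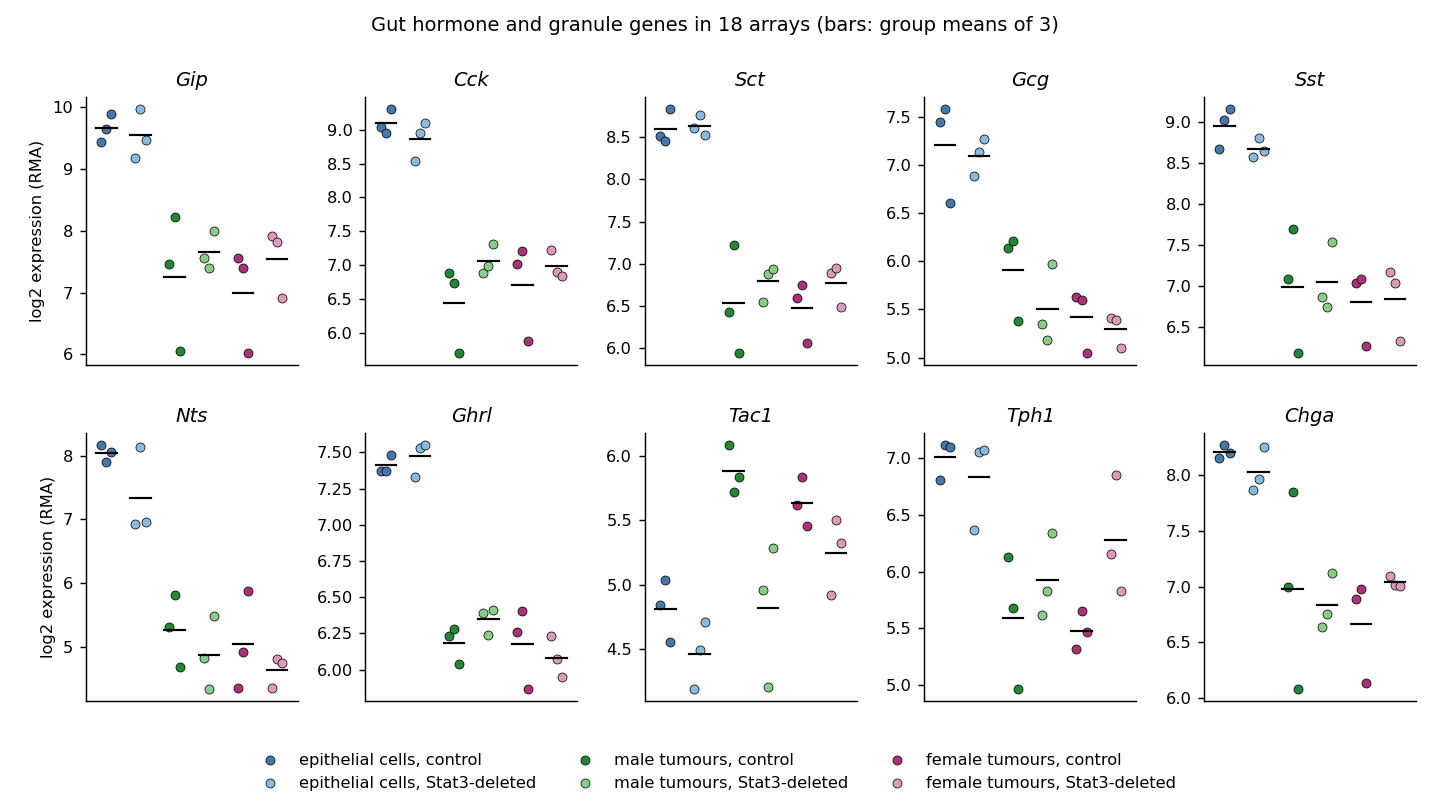
Deposited log2 values of the 10 genes (vertical axis of each panel) in the 18 arrays by group (horizontal axis), each point 1 array and each bar the mean of 3. In 8 panels all 12 tumour arrays lie below the 6 epithelial arrays, while Tac1 is higher in control tumours and Tph1 overlaps in Stat3-deleted mice.

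Gip, the incretin of K cells, read 9.43, 9.65 and 9.88 in control epithelial cells. In control tumours it read 7.46, 8.23 and 6.06 in males and 7.55, 7.40 and 6.02 in females. The difference was -2.53 ± 0.40 (SE), or 5.79-fold lower (95% confidence interval 3.21 to 10.5, adjusted p = 8.21e-05). All tumours were below all epithelial arrays, and male replicate 9 and female replicate 15 were more than 1 log2 unit below the other 4. In deleted mice the epithelial arrays read 9.18, 9.97 and 9.47, male tumours 7.56, 7.40 and 7.999, and female tumours 7.91, 7.82 and 6.91. Gip was 3.83-fold lower in these tumours (adjusted p = 0.000712), again with no overlap.

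Cck, the hormone of I cells that contracts the gallbladder, read 9.04, 8.95 and 9.31 in control epithelial cells. Control tumours read 6.88, 6.73 and 5.70 in males and 7.01, 7.21 and 5.88 in females. It was 5.79-fold lower in tumours (difference -2.53 ± 0.28, interval of the fold 3.85 to 8.71, adjusted p = 3.00e-06), and replicates 9 and 15 were again the lowest. In deleted mice the epithelial arrays read 8.54, 8.95 and 9.10 and the tumours lay between 6.84 and 7.31, a difference of -1.84 ± 0.28 (adjusted p = 7.21e-05).

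Sct encodes secretin, which stimulates bicarbonate release from the pancreas. It read 8.51, 8.45 and 8.84 in control epithelial cells, 6.43, 7.22 and 5.94 in control male tumours, and 6.60, 6.75 and 6.06 in control female tumours. It was 4.29-fold lower in tumours of control mice (difference -2.10 ± 0.23, adjusted p = 2.51e-06) and 3.62-fold lower in deleted mice (-1.85 ± 0.23, adjusted p = 1.31e-05). The 6 epithelial arrays of both genotypes had an SD of 0.15 and the 12 tumours an SD of 0.38, both small beside the difference.

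Sst, the inhibitory peptide of D cells, read 8.67, 9.01 and 9.15 in control epithelial cells, 7.08, 7.69 and 6.18 in control male tumours, and 7.04, 7.09 and 6.27 in control female tumours. The groups did not overlap, and the fall was 4.16-fold (difference -2.06 ± 0.29, adjusted p = 2.91e-05). In deleted mice it was 3.30-fold (difference -1.72 ± 0.29, adjusted p = 0.000158).

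Nts, whose product neurotensin slows gut movement, had the largest difference of the 10 genes in both genotypes. It read 8.17, 7.90 and 8.05 in control epithelial cells. In control tumours it read 5.32, 5.81 and 4.69 in males and 4.36, 4.92 and 5.87 in females, a 7.37-fold lower value (interval 4.47 to 12.1, adjusted p = 5.77e-06). Here replicate 15 was the highest of all 12 tumours, unlike its place for Gip, Cck, Sct and Sst. In deleted mice the epithelial arrays spread widely, at 6.92, 8.13 and 6.95, and the tumours, between 4.34 and 5.48, were 5.97-fold lower (adjusted p = 2.50e-05). Nts was near the low end of the arrays in some tumours: replicate 11 read 4.34, under its array's 25th percentile of 4.37, and replicates 13 and 16 both read 4.36, just above theirs of 4.30 and 4.33. The size of these folds therefore rests in part on values that may be background.

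Gcg, the precursor of glucagon and of the incretin GLP-1 in L cells, read 7.45, 7.58 and 6.60 in control epithelial cells. Control tumours read 6.14, 6.21 and 5.38 in males and 5.63, 5.598 and 5.05 in females, so the lowest epithelial array, replicate 3, was still above the highest tumour. The fall was 2.91-fold (difference -1.54 ± 0.24, adjusted p = 6.97e-05) in control mice and 3.23-fold (-1.69 ± 0.24, adjusted p = 4.49e-05) in deleted mice.

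Ghrl, the hormone ghrelin of X/A-like cells, read 7.37, 7.37 and 7.48 in control epithelial cells, 6.23, 6.28 and 6.04 in control male tumours, and 6.26, 6.41 and 5.87 in control female tumours. The fall was 2.34-fold (difference -1.23 ± 0.13, adjusted p = 1.49e-06) in control mice. In deleted mice it was 2.39-fold (-1.26 ± 0.13, adjusted p = 1.98e-06), nearly the same size.

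Chga read 8.15, 8.27 and 8.20 in control epithelial cells, 7.001, 7.85 and 6.08 in control male tumours, and 6.89, 6.98 and 6.14 in control female tumours. Replicate 8, at 7.85, was the tumour nearest to the epithelial arrays, of which the lowest, replicate 4, read 7.87. Chga was 2.61-fold lower in control tumours (difference -1.38 ± 0.27, adjusted p = 0.000497) and 2.13-fold lower in deleted ones (-1.09 ± 0.27, adjusted p = 0.00265).

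Tph1 read 6.81, 7.12 and 7.10 in control epithelial cells. Control tumours read 6.13, 5.68 and 4.96 in males and 5.32, 5.65 and 5.46 in females. All 6 lay below the 3 epithelial arrays, and the fall was 2.78-fold (difference -1.48 ± 0.26, adjusted p = 0.000182). In deleted mice the epithelial arrays read 6.37, 7.06 and 7.07, male tumours 5.62, 5.82 and 6.34, and female tumours 6.16, 6.85 and 5.83. There the groups overlapped, since female replicate 17 was above epithelial replicate 4, and the fall was 1.66-fold (difference -0.73 ± 0.26, adjusted p = 0.0202). Its call in deleted mice was lost in 2 of 18 alternative analyses, without replicate 5 (adjusted p = 0.0871) and without replicate 6 (adjusted p = 0.0919).

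Tac1, made by enterochromaffin cells and by neurons of the gut wall, was the 1 gene that was higher in tumours. It read 4.84, 5.04 and 4.56 in control epithelial cells, 6.09, 5.72 and 5.83 in control male tumours and 5.62, 5.84 and 5.45 in control female tumours. Every control tumour was above every control epithelial array, by 1.92-fold on average (difference 0.94 ± 0.21, adjusted p = 0.00103). In deleted mice the epithelial arrays read 4.19, 4.49 and 4.71 and the tumours 4.96, 4.21 and 5.28 in males and 4.92, 5.50 and 5.32 in females. Replicate 11, at 4.21, overlapped with the epithelial arrays, the difference was 0.57 ± 0.21 (adjusted p = 0.0229), and the call was lost in 3 of 17 alternatives: without replicate 4 (adjusted p = 0.130), without replicate 12 (0.0523) and in male tumours only (0.213).

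Tac1 was dim in epithelial cells, where it was under the array's 25th percentile in 3 arrays (replicates 3, 4 and 5), as it was in tumour replicate 11. The size of its fold between tumours and epithelial cells therefore rests on values that may be background. Of 15 markers of enteric neurons, which also make Tac1, 0 were called higher and 6 lower in control tumours, with a median of -0.23, beside 35.3% of all genes called lower (1 higher and 4 lower, median -0.06, after quantile normalization). In deleted mice 1 was higher and 6 lower. Those that fell in control tumours included Elavl3 (-0.93 ± 0.13, adjusted p = 2.13e-05) and Nos1 (-0.64 ± 0.18, adjusted p = 0.00551). The mean of the 15 lay between 5.36 and 5.65 in epithelial arrays and between 4.94 and 5.67 in tumours. Array medians were higher, between 5.88 and 6.07, so these markers were dim in both. One of them, Nefm, was under the array's 25th percentile in all control tumours. Another, Elavl4, was under it in all control epithelial arrays and in female tumours of both genotypes. Of 5 enteric glia markers, 0 were called higher and 4 lower in control tumours (median -0.57). The part of enteric neurons in the Tac1 values was not tested.

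Mast cells also contain Tph1, and 2 of 10 mast cell genes tested were called higher in control tumours: the receptor Kit (difference 1.24 ± 0.17, adjusted p = 1.80e-05) and the mucosal protease Mcpt2 (2.36 ± 0.64, adjusted p = 0.00482). Tpsab1 was called lower (-0.36 ± 0.11, adjusted p = 0.0107). The mean of the 11 mast cell genes measured lay between 5.05 and 5.89 in epithelial arrays and between 5.34 and 7.14 in tumours. Female replicate 17, with the highest Tph1 of all tumours (6.85), also had the highest mast cell mean (7.14) and the highest Mcpt2 (10.8). Cpa3 and Ms4a2 were under the array's 25th percentile in all 6 epithelial arrays. The part of mast cells in the Tph1 values was not tested.

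**Figure D2:**
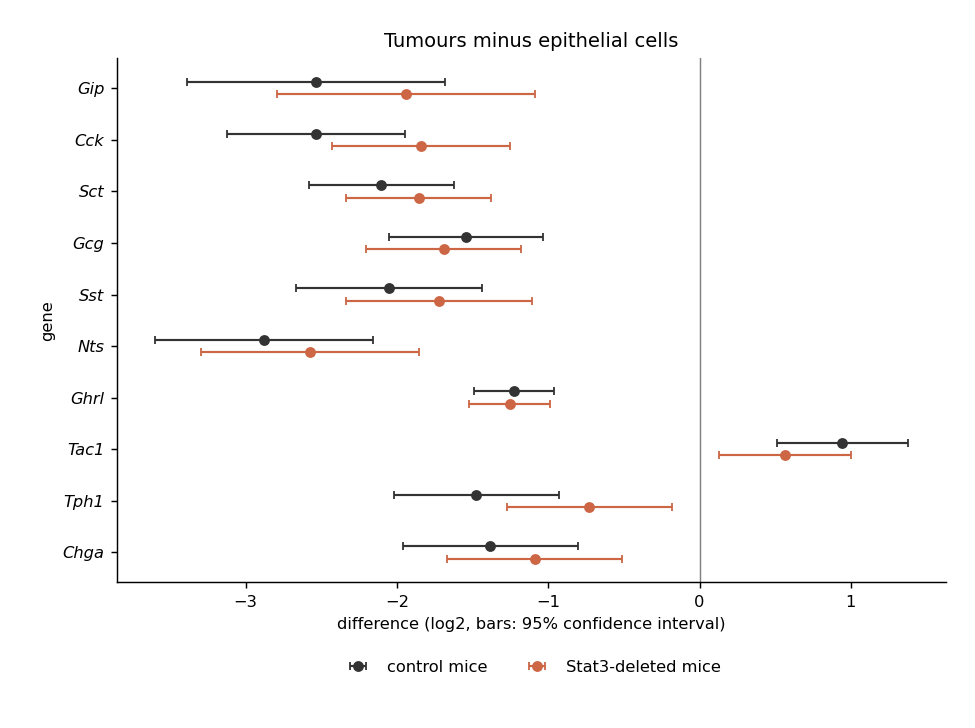
Tumour minus epithelial difference on the log2 scale (horizontal axis, bars 95% confidence intervals) for each of the 10 genes (vertical axis) in control and in Stat3-deleted mice. For 9 genes both intervals lie below 0, with Nts lowest at -2.88 and -2.58, and for Tac1 both lie above 0.

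Other gut peptides moved less evenly. Of 16 further hormones and peptides, 3 were higher and 8 lower in control tumours, with a median of -0.37. The guanylate cyclase activator Guca2b (-2.29 ± 0.50, adjusted p = 0.000989), gastrin (Gast, -0.80 ± 0.16, adjusted p = 0.000507) and the urocortin Ucn3 (-0.62 ± 0.13, adjusted p = 0.000737) fell, and nesfatin's precursor Nucb2 rose (1.42 ± 0.20, adjusted p = 2.99e-05). In deleted mice 2 were higher and 9 lower. Pyy, a partner of Gcg in L cells named after its values were seen, had no difference past the threshold (0.15 ± 0.51, adjusted p = 0.807): it lay between 7.44 and 8.33 in epithelial arrays and between 6.47 and 9.42 in control tumours, with its highest values there in replicates 9 (9.12) and 15 (9.42).

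Of 16 granule proteins other than Chga, 0 were higher and 8 lower in control tumours, with a median of -0.48. Chgb, the sister chromogranin, fell by 1.59 ± 0.32 on the log2 scale, or 3.003-fold (adjusted p = 0.000615). It read between 8.13 and 8.69 in epithelial arrays and between 5.79 and 7.82 in control tumours, with replicate 9 lowest and replicate 8 highest, like Chga. The secretogranin Scg3 (-0.80 ± 0.12, adjusted p = 5.08e-05), Rimbp2 (-0.65 ± 0.12, adjusted p = 0.000315) and the calcium sensor Syt7 (-0.61 ± 0.14, adjusted p = 0.00158) also fell. Scg3 was under the array's 25th percentile in all control female tumours and in all Stat3-deleted tumours. The size of its fall therefore rests in part on values that may be background. Scg3 could pass the filter only through epithelial and control male tumour arrays, and it is higher in the epithelial ones. Its p-value is therefore not taken as support for a fall. In deleted mice 12 of 16 were lower and 0 higher.

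Among 7 enzymes that process prohormones, 2 rose and 2 fell in control tumours. Pcsk1, which cuts most of the peptides here, fell 2.39-fold (difference -1.26 ± 0.19, adjusted p = 6.30e-05), and Mboat4, which acylates ghrelin, fell by 0.56 ± 0.14 (adjusted p = 0.00288). Cpd (0.67 ± 0.17, adjusted p = 0.00335) and the amidating enzyme Pam (1.03 ± 0.30, adjusted p = 0.00661), both of which other cell types also make, rose. Of 10 genes of serotonin and monoamine handling, 4 fell and 2 rose. The serotonin transporter Slc6a4 (-2.78 ± 0.43, adjusted p = 6.70e-05), Maoa (-2.32 ± 0.41, adjusted p = 0.000213), the decarboxylase Ddc (-1.996 ± 0.39, adjusted p = 0.000485) and Maob (-2.84 ± 0.64, adjusted p = 0.00131) were the 4 that fell. Those that rose, named after their values were seen, were the vesicular transporter Slc18a1 (1.10 ± 0.38, adjusted p = 0.0181) and Pts (0.45 ± 0.16, adjusted p = 0.0233), and after quantile normalization of the arrays 0 of 10 rose.

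Of 18 transcription factors of the enteroendocrine lineage, 2 rose and 10 fell in control tumours, with a median of -0.43 (3 and 7 after quantile normalization). Foxa1 rose (1.70 ± 0.15, adjusted p = 5.20e-07). Neurod1 fell by 1.17 ± 0.14 (adjusted p = 7.74e-06), Pax4 by 0.55 ± 0.13 (adjusted p = 0.00171) and Nkx2-2 by 0.45 ± 0.12 (adjusted p = 0.00383). Neurod1 read between 4.08 and 5.01 in epithelial arrays and between 3.50 and 4.18 in tumours, where it was always below the array's 25th percentile. It passed the filter only through epithelial arrays, where it is higher, so its p-value is no support for a fall. The size of its difference rests on tumour values that may be background.

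Receptors of these hormones were lower in 14 of 23 cases and higher in 3 (10 and 3 after quantile normalization), with a median of -0.44. Sstr2 (-0.82 ± 0.11, adjusted p = 2.13e-05) and the tachykinin receptor Tacr2 (-0.74 ± 0.13, adjusted p = 0.000145) fell, and the neurotensin-binding sorting receptor Sort1 (1.16 ± 0.20, adjusted p = 0.000164) and the GLP-2 receptor Glp2r (0.83 ± 0.15, adjusted p = 0.000204) rose. Of 15 nutrient and bile acid sensors, 12 fell and 2 rose (10 and 2 after quantile normalization). The glucose transporter Slc5a1 fell by 2.87 ± 0.47 (adjusted p = 0.000106), Ffar3 by 0.99 ± 0.18 (adjusted p = 0.000215) and Gpr119 by 0.58 ± 0.11 (adjusted p = 0.000285), and the long-chain fatty acid receptor Ffar4 rose by 1.07 ± 0.19 (adjusted p = 0.000179).

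Many of these list genes are dim, and dim genes were often lower in tumours: of the 8658 dimmer genes tested, 47.9% were called lower and 18.2% higher in control mice, against 22.7% and 42.5% of the 8658 brighter ones. The 10 hormone and granule genes split evenly, with 5 in each class. Their median difference of -1.80 stood beside medians of -0.33 and 0.23 for the dimmer and the brighter genes.

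**Figure D3:**
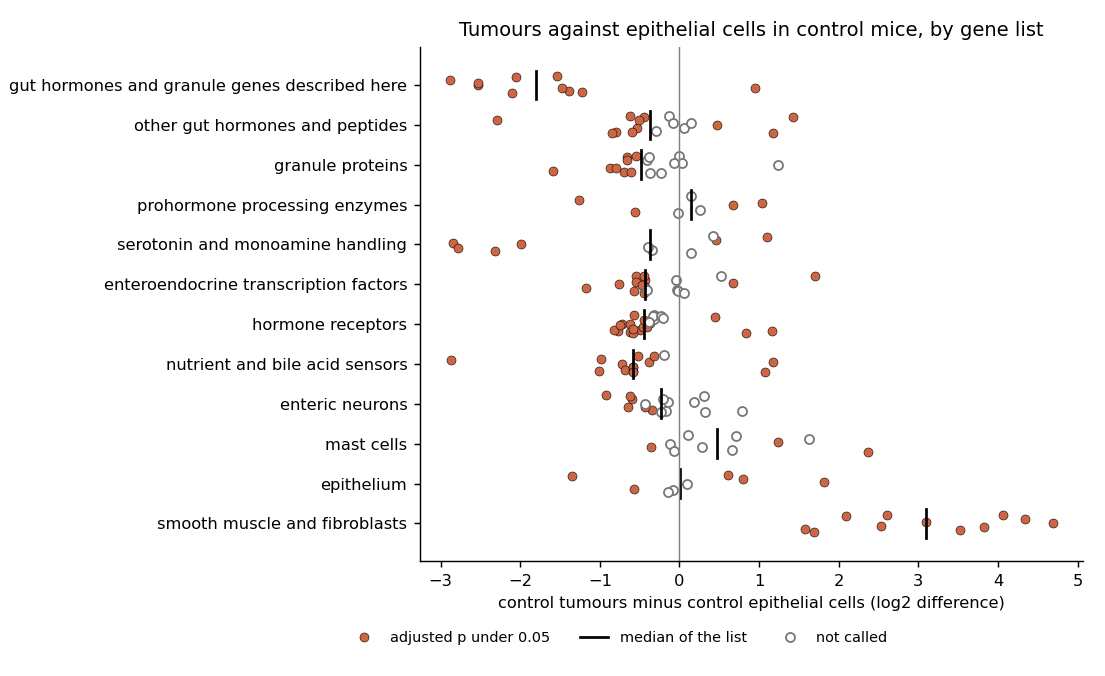
Control tumours minus control epithelial cells (horizontal axis, log2 difference) for each gene of 12 lists (vertical axis), filled where the adjusted p is under 0.05, with a line at each median. The median of the 10 genes described here is -1.80, those of the other enteroendocrine lists lie between -0.58 and 0.14, and that of smooth muscle and fibroblast genes is 3.10.

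Deletion of Stat3 was set against control within each kind of sample. In epithelial cells 0 of the 10 genes were called (0 also at an unadjusted p under 0.05), against 0.0231% of genes tested. The median difference was -0.18, with 8 of 10 values below 0. Markers of T and NK cells moved in the same comparison, with a median difference of 1.28 over 10 genes, 0 of them called, and with array means of 6.76, 6.72 and 7.30 in control and 9.002, 7.84 and 7.41 in deleted epithelial cells. Replicate 4, which had the highest of these, had the lowest mean of the 10 hormone and granule genes (7.45, against 7.75 to 7.94 in the other 5 epithelial arrays), and the part of T and NK cells in these values was not tested. Nts had the largest value, -0.71 ± 0.39 (95% interval -1.54 to 0.13, adjusted p = 0.725), since replicates 4 and 6 read 6.92 and 6.95 while replicate 5, at 8.13, lay among the controls. Ghrl, with the narrowest interval (-0.24 to 0.37 around a difference of 0.06), bounds a change in epithelial cells most tightly, and Gip had the widest interval (-1.10 to 0.87).

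In tumours 0 of the 10 were called in males (0.231% of all genes tested), 0 in females (0.104%) and 0 in both sexes together (0.71%), although 1, 1 and 2 of them had an unadjusted p under 0.05. The medians of the 10 were 0.11 in males, 0.17 in females and 0.09 in both, against -0.04 for all genes in each.

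Tac1 came nearest to a call. The 3 deleted male tumours (4.96, 4.21 and 5.28) were all below the 3 control male tumours (6.09, 5.72 and 5.83), a difference of -1.06 ± 0.24 (interval -1.56 to -0.56, adjusted p = 0.0962). Replicate 11, at 4.21, was under its array's 25th percentile of 4.37. The size of the Tac1 difference in males therefore rests in part on a value that may be background. In males 8.03% of genes were lower in all deleted tumours without overlap. In females the deleted tumours (4.92, 5.50 and 5.32) overlapped with the controls (5.62, 5.84 and 5.45), and the difference was -0.39 ± 0.24. Over both sexes it was -0.73 ± 0.17 (interval -1.08 to -0.37, adjusted p = 0.0561), a value between 0.0192 and 0.181 over 20 alternative analyses, of which 3 made it a call (arrays centred on their median, array weights, and without replicate 12).

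Tph1 went the other way in tumours. In females the deleted tumours (6.16, 6.85 and 5.83) were all above the controls (5.32, 5.65 and 5.46), by 0.80 ± 0.30 (interval 0.17 to 1.43, adjusted p = 0.798). In females 5.2% of genes were higher in all deleted tumours without overlap. In males the groups overlapped and the difference was 0.34 ± 0.30. Over both sexes it was 0.57 ± 0.21 (interval 0.13 to 1.02, adjusted p = 0.259), which became a call in 1 of 21 alternatives, with array weights (adjusted p = 0.0348). Mcpt2 lay between 7.55 and 9.84 in control tumours and between 8.33 and 10.8 in deleted ones. Of 10 mast cell genes, 0 were called for deletion in female tumours, in male tumours or over both sexes. Their median difference was 0.43 in females (range 0.12 to 1.65), -0.14 in males (-0.28 to 0.87) and 0.26 over both sexes. Their part in the Tph1 values was not tested.

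Chga was also higher in all 3 deleted female tumours (7.10, 7.01 and 7.01) than in the 3 controls (6.89, 6.98 and 6.14), but by 0.37 ± 0.32 with an adjusted p of 0.997 and replicate 15 far below the rest. Cck was higher in deleted male tumours without overlap (6.88, 6.99 and 7.31 against 6.88, 6.73 and 5.70, where the 2 nearest values were 6.881 and 6.877), as were 2.06% of genes, by 0.63 ± 0.32 (adjusted p = 0.729). In both genes the low control value was replicate 9 or 15. Without these 2 tumours the difference over both sexes was 0.07 for Cck in place of 0.46, -0.06 for Gip in place of 0.48 and -0.24 for Chga in place of 0.12.

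**Figure D4:**
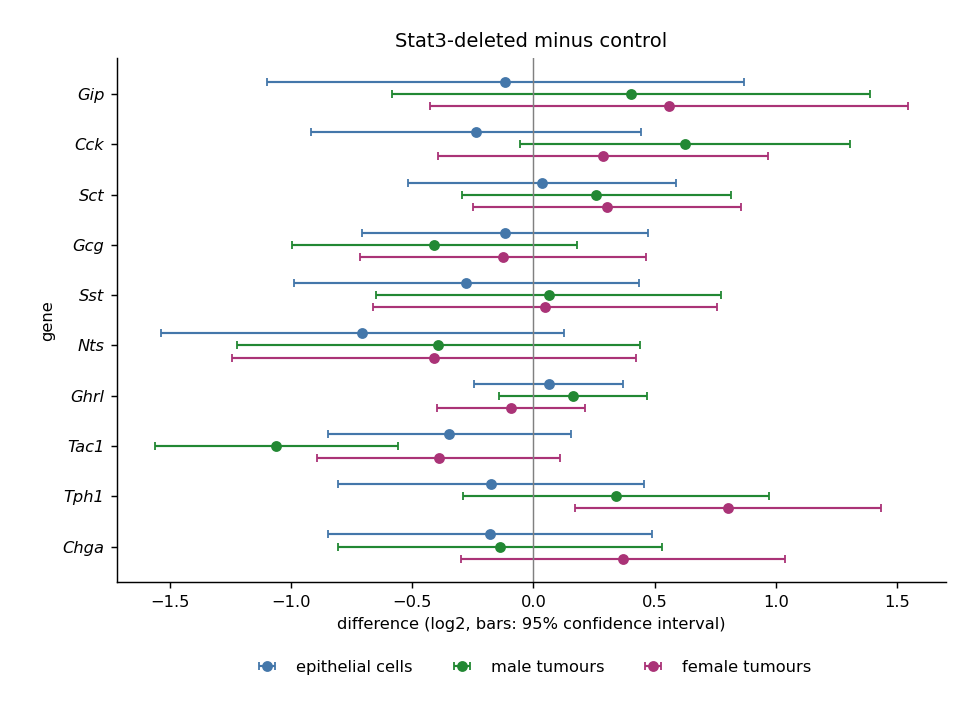
Stat3-deleted minus control difference (horizontal axis, log2, bars 95% confidence intervals) for each of the 10 genes (vertical axis) in epithelial cells, male tumours and female tumours. The intervals span 0 except those of Tac1 in males (-1.56 to -0.56) and of Tph1 in females (0.17 to 1.43), and neither gene was called after adjustment.

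The deletion effect did not differ detectably between the sexes for any of the 10 genes (0 called, adjusted p of 1 for each, 0% of all genes called). For Tac1 the female effect minus the male effect was 0.67 ± 0.33, with an interval of -0.04 to 1.38. Between tumours and epithelial cells 0 of 10 effects differed (0.0116% of genes called), with adjusted p from 0.535 to 0.967. Tph1 had the largest such value (0.75 ± 0.36, interval -0.03 to 1.52) and Cck the next (0.69 ± 0.39). Male and female tumours differed in 0 of the 10 (0.0231% of genes called), with differences from -0.12 for Tph1 to 0.35 ± 0.20 for Gcg and adjusted p from 0.749 to 0.955. At an unadjusted p under 0.05 these 3 comparisons each had 0 of the 10.

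The other genes of the pathway gave few calls for deletion in tumours of both sexes: 0 of 16 further peptides, 0 of 16 granule proteins, 0 of 7 processing enzymes, 0 of 10 serotonin genes and 0 of 23 receptors. Rfx6, a transcription factor needed for the endocrine lineage, was the 1 of 18 factors called, and it was higher (1.89 ± 0.33, adjusted p = 0.0117). It lay between 4.03 and 4.96 in control tumours and between 4.87 and 7.498 in deleted ones, and only replicate 16, at 4.87, overlapped with the controls. Control replicates 9 (4.16) and 15 (4.03) were under their array's 25th percentile, 4.33 in each. The size of the Rfx6 difference therefore rests in part on values that may be background. The fatty acid sensor Ffar4 was the 1 of 15 sensors called, and it was lower (-0.87 ± 0.15, adjusted p = 0.00998), at 6.42 to 7.32 in control and 5.51 to 6.29 in deleted tumours.

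The tumours differed among themselves. Over the 12 tumours, replicates 9 and 15 were the 2 lowest for 5 genes, Gip, Cck, Sct, Sst and Chga, and replicate 8 was the highest for 5, Gip, Sct, Gcg, Sst and Chga. Replicate 9 was also lowest for Tph1 (4.96), while Nts was highest in replicate 15 (5.87) and next in replicate 8 (5.81). Replicates 9 and 15 stood apart in genes that mark gut segments. Hoxd13, expressed in the distal gut, read 8.25 and 9.10 there and between 4.82 and 5.59 in the other 10 tumours, and Gata4, expressed in the proximal small intestine, read 6.92 and 6.84 there and between 8.86 and 9.86 in the others. Replicate 8 stood apart too: the mean of 5 ileum markers was 9.35 there and at most 7.71 in the other 11 tumours, and the ileal bile acid binding protein Fabp6 read 11.1 there. Markers of gut segments also moved with genotype. Over tumours of both sexes the median deletion difference was 0.92 for 6 proximal small intestine markers, with 0 called. It was -0.86 for 6 colon markers, with 0 called, and 0.025 for 5 ileum markers, with 1 called lower. The bile acid transporter Slc10a2 lay between 5.28 and 7.72 in control tumours and between 3.91 and 4.62 in deleted ones (difference -2.03 ± 0.24, adjusted p = 0.000315), and Fabp6 lay between 4.78 and 11.1 in control tumours and between 4.27 and 4.62 in deleted ones (-2.89 ± 0.76, adjusted p = 0.0946), while the other 3 ileum markers differed by 0.03 to 0.45 and were not called. Slc10a2 in replicate 10 (3.91) and Fabp6 in replicate 18 (4.27) were under their array's 25th percentile, 4.39 and 4.31. The size of the Slc10a2 and Fabp6 differences therefore rests in part on values that may be background. Which segment these tumours came from is not in the labels. The part of segment in the low and high values and in the deletion differences was not tested. Without replicates 9 and 15 all 10 genes kept their direction and call against control epithelial cells, for example Gip at -1.996, Cck at -2.14 and Chga at -1.03.

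**Figure D5:**
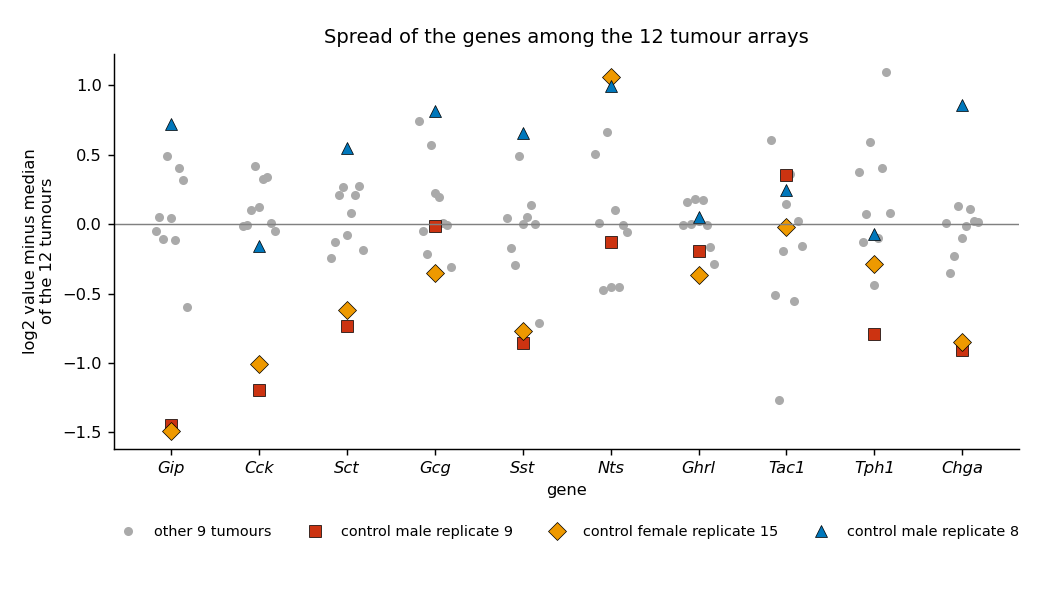
Value of each gene in each of the 12 tumours minus the median of the 12 (vertical axis, log2), by gene (horizontal axis). The square and diamond, control male replicate 9 and control female replicate 15, are the lowest points for Gip, Cck, Sct, Sst and Chga, and the triangle, control male replicate 8, is the highest for Gip, Sct, Gcg, Sst and Chga.

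As a description, Pearson's r over the 12 tumours was computed for the 45 pairs of the 10 genes, which share the same arrays. Pairs among Gip, Cck, Sct, Sst and Chga also share the same 2 low tumours, replicates 9 and 15. Over all 45 pairs r ranged from -0.29 to 0.93 with a median of 0.48. Among Gip, Cck, Sct, Sst and Chga the 10 pairs lay between 0.68 and 0.93 with a median of 0.84. Without replicates 9 and 15 the same 10 pairs spread from -0.24 to 0.92 with a median of 0.65. Pairs with Nts had a median of 0.05 over 12 tumours and of 0.47 without those 2, pairs with Tac1 of -0.10 and 0.09, and pairs with Sst of 0.75 and 0.64.

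The genes most like each of the 10 over the same 12 tumours were ranked by r among all genes tested, again with no test. Replicates 9 and 15 were the 2 lowest tumours for Gip, Cck, Sct, Sst and Chga. Replicate 15 was also the lowest for Gcg and Ghrl, and replicate 9 for Tph1. Every r given here includes both tumours. Gip was most like Gdpd2 (0.98), Slc9a3r1 (0.98) and Fbp2 (0.97), Cck like Mlxipl, Tkfc and Khk (0.96 each), and Sct like Pxdc1 (0.97), Gpt (0.96) and Cidec (0.95). Sst was most like Espn, Crip1 and Gnat1 (0.96 each), and Chga like Fam83f (0.96), Fam20a (0.96) and Pacsin2 (0.95). Gcg was most like Stard4 (0.94), Cant1 (0.91) and C7 (0.91), Ghrl like Bola3, Pax8 and Abcc6 (0.89 each), and Tph1 like Gsta4 (0.95), Flrt3 (0.93) and Nadk (0.92). Nts had the weakest likeness, to Tmem40 (0.86), Cplx4 (0.84) and Zfp869 (0.82), and Tac1 was most like Foxp1 (0.88), Top3a (0.87) and Lrrc31 (0.87). In no case was another of the 10 genes among the 3 most alike.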

How the data were processed

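The deposited log2 values were made by the authors with RMA, per the submitters' processing notes, which corrects background, normalizes by quantiles and summarizes probes. Its version and the array library were not given in the sources used here. Probe sets were named through the platform annotation, which gave 1 symbol for 21789 of 35556; a gene with several was represented by the one with the highest mean. In limma 3.58.1 (R 4.3.3) a mean per group was fitted to all 18 arrays with an intensity trend, and two-sided p-values were adjusted by Benjamini-Hochberg over 17316 genes within each of 9 comparisons, with a threshold of 0.05. SE and 95% intervals come from this fit, which was tested on simulated data. Precision is limited by 3 arrays per group. Replicate numbers are unique, so no samples were paired. The 10 genes and the lists were chosen with earlier results of these data known. Up to 4 called genes per list are named, by smallest adjusted p, or up to 2 as values where fewer than 2 were called, and the 3 most alike per gene. Alternatives were other normalizations, filters, variance models, array weights, the mean of probe sets, only the compared groups, left-out replicates, and male tumours only.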

Additional observations from a re-analysis of the deposited data

How the results depend on the processing

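Precision is limited by 3 arrays per group, and values near the low end of an array, such as Tac1 in epithelial cells, may be background. The stricter filter left Tac1 out. All 10 genes kept their direction in tumours against epithelial cells in every alternative run, in both genotypes, and all kept their call except Tac1 (lost in 3 of 17) and Tph1 (lost in 2 of 18) in Stat3-deleted mice. No paired analysis was possible because the replicate numbers are unique over the series. For deletion, small differences changed sign, and the cause was not tested. With arrays centred on their median, Sct in epithelial cells was -0.019 and 1 gene, Tac1, was called over both sexes. With array weights, Cck (0.042) and Tph1 (0.0073) in epithelial cells and Nts (0.0103) and Chga (0.27) in male tumours turned positive, 1 gene was called in females and 2 over both sexes. Without control tumours 9 and 15, male differences were -0.19 for Gip, -0.037 for Sct and -0.34 for Sst. Female ones were -0.12 for Cck, -0.22 for Sst and 0.001 for Nts. Over both sexes they were -0.0585 for Gip, -0.28 for Sst, -0.079 for Ghrl and -0.24 for Chga. Leaving out each array in turn, epithelial differences ranged from -0.33 to 0.063 for Gip, -0.0401 to 0.15 for Sct, -0.42 to 0.067 for Gcg and -0.30 to 0.057 for Tph1. In male tumours they ranged from -0.19 to 0.89 for Gip, -0.037 to 0.61 for Sct, -0.34 to 0.42 for Sst and -0.59 to 0.30 for Chga. In female tumours they ranged from -0.12 to 0.54 for Cck, -0.22 to 0.31 for Sst, -0.75 to 0.001 for Nts and -0.25 to 0.0215 for Ghrl. Over both sexes they ranged from -0.15 to 0.23 for Sst, -0.042 to 0.093 for Ghrl and -0.11 to 0.33 for Chga. With each array left out in turn, calls among the 10 genes ranged from 0 to 1 in male tumours and over both sexes. The 1 was Tac1 without replicate 12 (adjusted p = 0.0403 in males). Genes called for deletion, over all tested, ranged over the alternatives from 2 to 1134 in epithelial cells (4 in the fit reported), 2 to 117 in male tumours (40), 0 to 745 in female tumours (18) and 43 to 1414 over both sexes (123).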
